A study of Mus musculus with 2 samples.

Results

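Mir532, Mir188, Mir362, Mir501 and Mir500 are 5 microRNA (miRNA) genes that lie close together on the X chromosome, in the same intron of Clcn5. They were taken by symbol from the 1973 miRNA genes of the deposited count tables, and all 5 were found. Their counts come from whole midbrain of mouse embryos of strain B6NCrl, at embryonic day 15.5, pooled over male and female animals. Replicate 1 was a pool of 78 embryos and replicate 2 a pool of 62. These 2 biological replicates are the only group, untreated and described as healthy, so no condition is set against another. The measurement was sequencing of RNA of under 30 bases, and reads on the sense strand of a gene are given as CPM, counts per 1000000 sense counts of all miRNA genes in the library.

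A miRNA gene is transcribed into a hairpin, which is cut into short mature strands from its 5′ arm (5p) and its 3′ arm (3p). A mature strand guides the silencing complex to messenger RNAs, mainly through its seed, bases 2 to 8 counted from its 5′ end. miRNAs within an intron are often made from the transcript of the host gene, and neighbours on the same strand can come from a shared transcript. Clcn5 encodes a chloride and proton exchanger of endosomes, best known from the kidney. In rodent neurons, miR-188-5p has been reported to act on neuropilin 2 and on dendritic spines, and miR-501-3p on the glutamate receptor subunit GluA1 in dendrites. Reports on human miR-532, miR-362 and miR-500 are mostly from cancer cells.

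Of the mature strands, 9 were matched in RefSeq (build GRCm38.p6). The 5p strand of Mir532 had no entry there, so its sequence and seed were not compared. The 9 matched strands are shown because they fall into related groups. Each is written 5′ to 3′ with the seed in capitals, from the gene nearest the 5′ end of the host transcript onward.
miR-532-3p: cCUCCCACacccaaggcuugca
miR-188-5p: cAUCCCUUgcaugguggaggg
miR-188-3p: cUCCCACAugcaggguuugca
miR-362-5p: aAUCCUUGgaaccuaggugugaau
miR-362-3p: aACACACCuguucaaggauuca
miR-501-5p: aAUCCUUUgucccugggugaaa
miR-501-3p: aAUGCACCcgggcaaggauuug
miR-500-5p: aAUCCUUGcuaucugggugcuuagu
miR-500-3p: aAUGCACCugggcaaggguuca

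These 9 strands carry 7 different seeds. The seed AUGCACC is shared by miR-500-3p and miR-501-3p, and AUCCUUG by miR-500-5p and miR-362-5p. Those were 2 of the 36 pairs of strands compared. The 5p strands of Mir362, Mir501 and Mir500 all begin with AAUCCUU, as did 0 other mature strands among the 1738 of the RefSeq table. With positions counted from the 5′ end of miR-500, miR-501-5p leaves the shared seed by G8U. The 3p strands of Mir500 and Mir501 were identical at 18 of 22 bases and differed by U9C, G18A, C21U and A22G, all outside the seed. miR-362-3p matched miR-500-3p at 17 of 22 bases, and U3C and G4A fall within the seed.

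Mir532 and Mir188 form a separate pair at their 3′ arms. miR-188-3p matched miR-532-3p at 17 of 21 bases when shifted by 1 base, so its seed, UCCCACA, also reads within miR-532-3p 1 base later than that strand's own seed, CUCCCAC. Outside the cluster, 2 mature strands had the seed of a matched member strand. miR-329-3p of chromosome 12, shown for the seed it has in common with miR-362-3p, differs from it after that seed.
miR-329-3p: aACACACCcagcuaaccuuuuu
Its gene Mir329 had 144.6 CPM in replicate 1 and 141 CPM in replicate 2, above Mir362 in each library. The other strand, miR-7061-3p, has the seed of miR-188-5p, and its gene was not analysed here.

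The likeness of these sequences did not extend to long identical stretches. The longest run that a member hairpin had in common with any other of the miRNA transcripts searched, on either strand, was 14 bases, between Mir500 and Mir501. It was 13 bases for Mir532, 12 for Mir188 and 11 for Mir362. The table gives reads with several mapping places to no gene, 37.7% of all reads in replicate 1 and 35.8% in replicate 2. How many such reads came from the members was not tested.

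All 5 genes lie on the minus strand of mm10, which is also the strand of Clcn5 (chromosome X, 7153810 to 7319358). In the order in which the host is transcribed, Mir532 is at 7248402 to 7248497, Mir188 at 7247989 to 7248056, Mir362 at 7241982 to 7242046, Mir501 at 7241243 to 7241351 and Mir500 at 7237683 to 7237774. They span 10815 bases and overlap 0 exons of Clcn5. The cluster lies within an intron of 103648 bases, 68161 bases after its upstream exon and 24672 bases before its downstream exon. In GENCODE M21 this is intron 3 of transcripts Clcn5-202 and Clcn5-204 and intron 2 of Clcn5-203. The other 2 of the 5 annotated transcripts, Clcn5-201 and Clcn5-205, start downstream of the cluster and do not contain it. Messenger RNA was not measured, so the level of the host transcripts is not known from these data. The members form 2 close pairs, with 345 bases between Mir532 and Mir188 and 630 bases between Mir362 and Mir501. Mir188 and Mir362 are 5942 bases apart, and Mir501 and Mir500 are 3468 bases apart. The tables list 0 other miRNA genes on this strand of Clcn5.

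The members together held 0.325% of sense counts in replicate 1 (11156 counts, 95% exact interval 0.319 to 0.331) and 0.316% in replicate 2 (18175 counts, 0.311 to 0.321). The mean was 0.321 ± 0.00659% (SD, n = 2), or 3206 ± 65.9 CPM. As a single gene, that sum would rank 58th of the table. Sense counts of all genes were 3429704 in replicate 1 and 5752476 in replicate 2, so that 1 read was worth 0.292 and 0.174 CPM. Intervals cover counting error only. In bulk tissue, fewer cells of a type and less RNA per cell cannot be told apart.

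Mir532 was the highest member, with 1523 CPM in replicate 1 (5224 counts, 95% exact Poisson interval 1482 to 1565 CPM) and 1497 CPM in replicate 2 (8610 counts, 1465 to 1529 CPM). Its mean of 1510 ± 18.7 CPM (SD, n = 2) ranked 75th of all genes, and it had that rank in each library. Mir188 followed with 1073 CPM in replicate 1 (3681 counts, 1039 to 1109 CPM) and 993.7 CPM in replicate 2 (5716 counts, 968 to 1020 CPM). Its mean was 1033 ± 56.3 CPM, the 90th rank, with 14 genes between it and Mir532. The upstream pair therefore held 79.8% of the cluster's counts in replicate 1 and 78.8% in replicate 2.

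Mir501 came next, with 478 CPM in replicate 1 (1640 counts, 455 to 502 CPM) and 483 CPM in replicate 2 (2780 counts, 465 to 502 CPM). Its mean was 481 ± 3.60 CPM, the 125th rank. Mir500, which has the same 3p seed, had 122 CPM in replicate 1 (417 counts, 110 to 134 CPM) and 139.9 CPM in replicate 2 (805 counts, 130 to 150 CPM). Its mean of 131 ± 13.0 CPM ranked 196th. Mir362 was lowest, with 56.6 CPM in replicate 1 (194 counts, 48.9 to 65.1 CPM) and 45.9 CPM in replicate 2 (264 counts, 40.5 to 51.8 CPM). Its mean of 51.2 ± 7.55 CPM ranked 238th, just under the median of 52.7 CPM over the 474 genes that averaged 1 CPM or more. The other 4 members were above that median. On the opposite strand, each member had 0 counts in each library, which allows a level of up to 0.875 CPM in the shallower replicate 1 and 0.522 CPM in replicate 2 (3 counts).

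**Figure D1:**
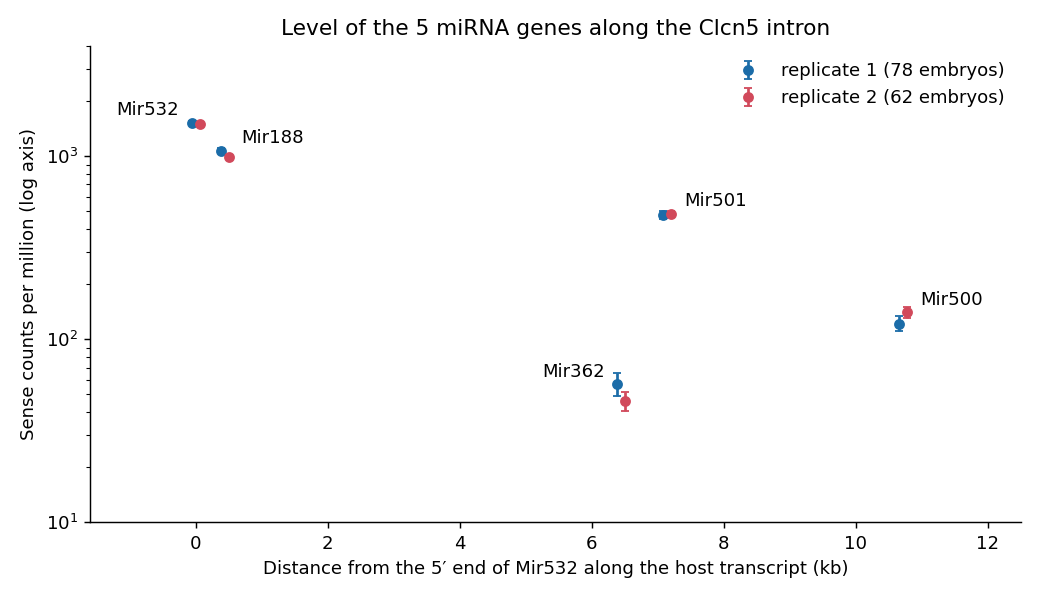
Sense level (CPM, log axis) of each miRNA gene against its distance from the 5′ end of Mir532 in the direction of host transcription (kb). Points are the 2 libraries, side by side, and bars are 95% Poisson intervals. Mir532 averages 1510 CPM and Mir188 1033 CPM, Mir362 is lowest at 45.9 to 56.6 CPM, and Mir501, 630 bases after it, is at 478 and 483 CPM.

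Levels did not fall steadily along the intron. The order was Mir532, Mir188, Mir501, Mir500 and Mir362 in each library, and no library's value of a gene overlapped the values of the next gene in that order. Each step between neighbours in the order was larger than the spread between the libraries. These steps cannot be tested over 2 libraries. An exact permutation test gives no two-sided p under 0.333, even when the pairing of genes within a library is ignored. Mir532 exceeded Mir188 by 1.42 times in replicate 1 (95% exact counting interval 1.36 to 1.48) and by 1.51 times in replicate 2 (1.46 to 1.56). Mir188 exceeded Mir501 by 2.24 and 2.06 times, and Mir501 exceeded Mir500 by 3.93 and 3.45 times in replicates 1 and 2. Mir500 exceeded Mir362 by 2.15 times in replicate 1 (1.81 to 2.56) and by 3.05 times in replicate 2 (2.65 to 3.52), and these intervals do not overlap. The whole range from Mir532 to Mir362 was 26.9 and 32.6 times.

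The steps depended on the scale. Per annotated base of the gene, Mir532 had 15.9 CPM in replicate 1 and 15.6 CPM in replicate 2, and Mir188 had 15.8 and 14.6 CPM. On that scale Mir532 exceeded Mir188 by a mean of 1.04 times and Mir188 exceeded Mir501 by 3.45 times, with the order of the 5 genes kept. The 9 matched mature strands are 21 to 25 bases long, whatever the length of the gene. The counts are of genes, so the part of each arm is not known.

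The close pairs differed in how alike their levels were. Mir532 and Mir188 were within 1.51 times of each other in each library. Mir501, by contrast, exceeded Mir362 by 8.45 times in replicate 1 (95% exact interval 7.28 to 9.86) and by 10.5 times in replicate 2 (9.28 to 12.0), although only 630 bases lie between them. The members that share the seed AUCCUUG, Mir500 and Mir362, were the lowest pair. Those that share AUGCACC, Mir501 and Mir500, were 3.69 ± 0.339 times apart (SD, n = 2).

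Within the cluster's counts, Mir532 made up 46.8% in replicate 1 (95% exact interval 45.9 to 47.8) and 47.4% in replicate 2 (46.6 to 48.1). Mir188 made up 33.0% (32.1 to 33.9) and 31.4% (30.8 to 32.1), and Mir501 14.7% (14.05 to 15.4) and 15.3% (14.8 to 15.8). Mir500 made up 3.74% in replicate 1 (3.39 to 4.11) and 4.43% in replicate 2 (4.13 to 4.74), and these intervals do not overlap. Mir362 made up 1.74% (1.50 to 2.00) and 1.45% (1.28 to 1.64), with overlapping intervals. The intervals of Mir188 barely overlap, with a low end of 32.12% in replicate 1 and a high end of 32.13% in replicate 2. These intervals cover counting error only, and overlap was not examined for other genes. Tested between the libraries among all genes, the level of Mir500 was not called (adjusted p = 0.195, exact binomial test).

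**Figure D2:**
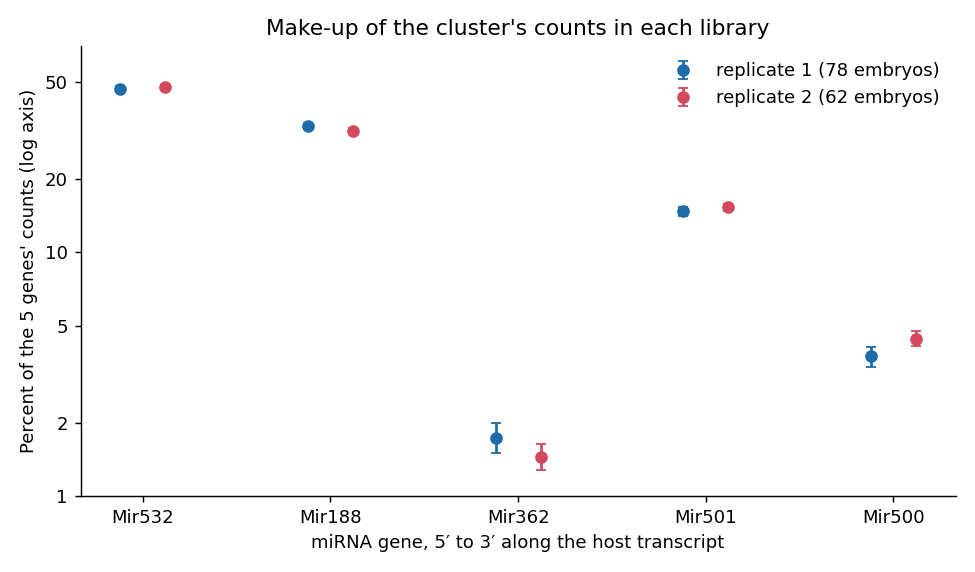
Share of the counts of the 5 genes taken by each gene (percent, log axis) in replicate 1 and replicate 2, in order along the host transcript. Bars are 95% exact binomial intervals. Mir532 takes 46.8% and 47.4%, and Mir500 takes 3.74% and 4.43%. The intervals cover counting error only.

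Between the libraries, Mir188 was the only member called different after adjustment over all genes. Its log2 ratio of replicate 1 over replicate 2 was 0.14 (95% interval 0.085 to 0.20), with an adjusted p of 1.91e-05 in the two-sided conditional exact binomial test, adjusted over all 717 genes with a count. Ratios here are on the log2(CPM + 1) scale after TMM scaling of library sizes. The test compares these libraries, not conditions, and neither pool has a replicate of its own. It assumes counting error alone, but the libraries differed by more than that. Over genes with at least 10 counts, the chi-square of their counts was 27185 on 468 degrees of freedom. The p and the interval are therefore too narrow a guide to the spread between pools. By the same rule, 19.8% of all tested genes were called, 72 toward replicate 1 and 70 toward replicate 2, and 1 of the 5 members. Of the 203 genes that averaged 100 CPM or more, 57.1% were called, and 1 of the 4 members at that level was. edgeR's exact test with a biological coefficient of variation of 10% called 0.418% of genes and 0 of the 5 members. That 10% was set and not estimated from these libraries, so the loss of Mir188's call rests on it.

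The other members did not pass after adjustment, although the intervals of Mir362 and Mir532 exclude 0. Mir362 had the largest, a log2 ratio of 0.33 (0.060 to 0.61, adjusted p = 0.0729 in the exact binomial test). Mir532 had 0.059 (0.0089 to 0.11, adjusted p = 0.0922, exact binomial test) and Mir501 0.018 (-0.071 to 0.11, adjusted p = 0.958, exact binomial test), which was -0.015 when libraries were scaled by their total counts. Mir500 alone had a negative ratio, -0.17 (-0.34 to 0.0030, adjusted p = 0.195, exact binomial test). Unadjusted, the exact binomial p was 0.0153 for Mir362, 0.0204 for Mir532 and 0.0538 for Mir500. When the 717 genes were restricted to those with at least 10 counts, the adjusted p of Mir362 became 0.0486 in that test, so its call rests on how many genes are tested. The median ratio of the members was 0.059, against -0.036 for all tested genes. Those 717 genes include many of few counts, whereas each member averaged 51.2 CPM or more, so the medians are not of genes of like level. The median absolute ratio over the genes of 100 CPM or more was 0.12.

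**Figure D3:**
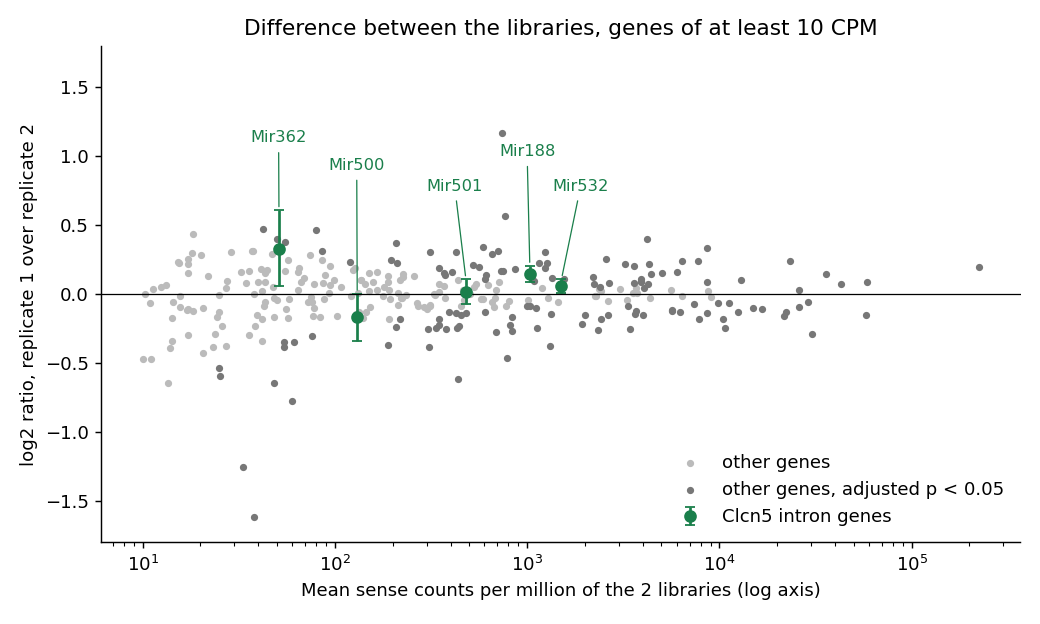
Log2 ratio of replicate 1 over replicate 2 against the mean level (CPM, log axis) for genes averaging 10 CPM or more, with the 5 members in green and their 95% counting intervals. The members lie between -0.17 for Mir500 and 0.33 for Mir362.

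On the X chromosome, the members spread over both sides of the middle level. Of its 120 miRNA genes in the table, 47 averaged 1 CPM or more, and these had a median of 131 CPM, the level of Mir500. Mir532 ranked 6th, Mir188 7th, Mir501 12th, Mir500 24th and Mir362 31st of them. Together the members held 9.68% of the counts of the chromosome, which itself held 3.31% of all sense counts.

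Other groups of neighbouring X-linked miRNA genes also held members of very different level. The Mir322 group, whose genes are known from cell cycle exit and muscle, summed to 8356 CPM in replicate 1 and 8768 CPM in replicate 2 over its 7 genes. Its means ran from 7404 CPM for Mir322 to 1.40 CPM for Mir450-2 (6 counts in each library), a range of 5303 times. That of Mir106a, a paralogue of the Mir17 cluster, summed to 1133 and 1270 CPM, and ran from 452 CPM for Mir106a to 4.30 CPM for Mir19b-2, or 105 times. The Clcn5 members had 3253 and 3160 CPM in sum and a range of 29.5 times, so they lay between those groups in total and below each in range. Their SD of log2 mean CPM was 2.05, against 2.56 for the Mir106a group and 4.32 for the Mir322 group. The gap in range was not tested, since genes of a group are not replicates. Mir19b-2, Mir92-2 and Mir106a have close relatives elsewhere in the genome, and Mir450-1 (3.46 CPM) and Mir450-2 are near copies of each other. Reads that map to several places went to no gene, so the low ends, ranges and totals of both groups are uncertain. The place of the Clcn5 members relative to them therefore holds only for the reads that were counted.

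The pairs Mir98 and Mirlet7f-2, within Huwe1, and Mir221 and Mir222 were closer in level. Mir98 had 4558 and 4226 CPM and Mirlet7f-2 had 2720 and 2628 CPM, a ratio of means of 1.64. Mirlet7f-2 has relatives of the let-7 family elsewhere in the genome, and reads that map to several places went to no gene. The ratio of this pair is therefore uncertain. Mir221 had 194 and 181.8 CPM and Mir222 had 109.05 and 107.6 CPM, a ratio of 1.74. Mir532 and Mir188, at 1.46 ± 0.0616 (SD, n = 2), were about as far apart as those pairs in the reads that were counted.

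**Figure D4:**
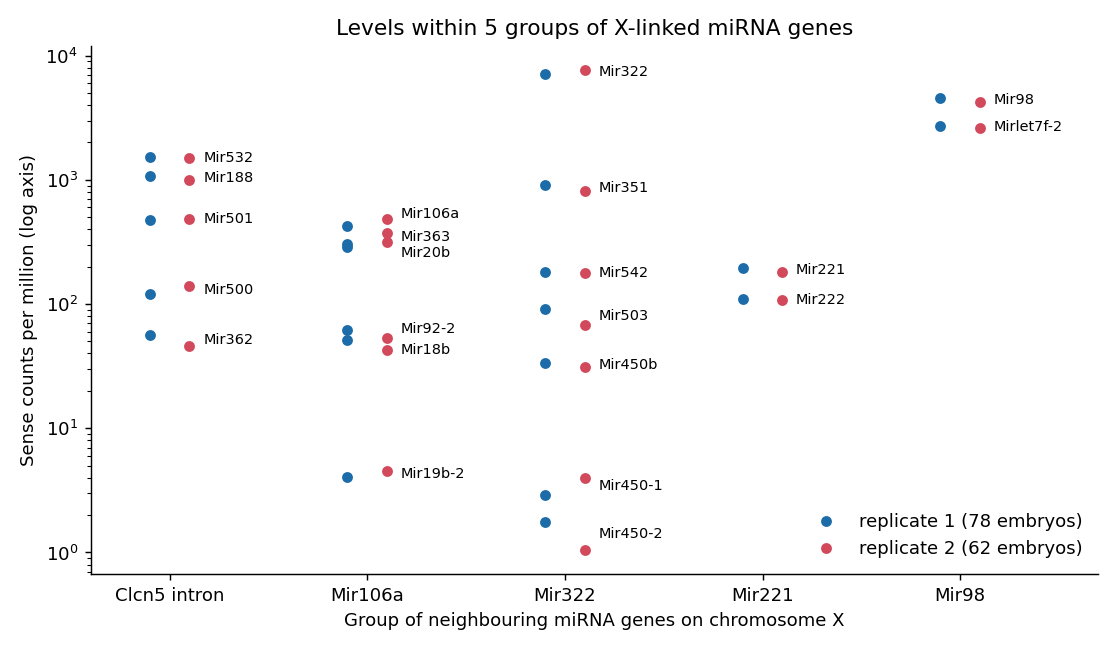
Sense level (CPM, log axis) of each miRNA gene in 5 groups of neighbouring genes of chromosome X, with replicate 1 left of replicate 2. The Clcn5 intron genes average 51.2 to 1510 CPM and the Mir322 group 1.40 to 7404 CPM. The Mir221 and Mir98 pairs are 1.74 and 1.64 times apart in the reads that were counted.

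The gene outside the cluster whose values over the 2 libraries lay nearest was named for each member, by distance in log2(CPM + 1). For Mir532 it was Mir101b (1602 and 1518 CPM, distance 0.076) and for Mir188 it was Mir138-1 (1110 and 1065 CPM, distance 0.11). For Mir501 it was Mir135a-1 (459.5 and 483.8 CPM, distance 0.057), for Mir362 Mir190a (56.3 and 43.5 CPM, distance 0.077) and for Mir500 the X-linked Mir448 (121.0 and 137 CPM, distance 0.030). With 2 libraries of a single tissue, this likeness is mostly of level.

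Markers were read as a check on the tissue label. The neural list had 8 of 9 genes in the table at 1 CPM or more, and summed to 18466 CPM in replicate 1 and 19814 CPM in replicate 2. Most of each sum was Mir137, with 10800 and 11585 CPM. Mir9-2 averaged only 1.66 CPM, beside 484 CPM for Mir9-3. Endothelial Mir126a had 24909 and 21568 CPM, the mural genes 6392 and 5868 CPM, the red cell list 197 and 208 CPM and the white cell list 334 and 319 CPM. Hepatocyte Mir122 had 43.2 and 76.1 CPM. The muscle list summed to 30.6 and 63.6 CPM, with Mir1a-1, Mir133a-1 and Mir133a-2 listed at 0. Those 3 genes have copies with the same mature strand, whose reads the table can give to no gene, so their 0 does not show a low level. The copies of the neural miR-124, Mir124a-1, Mir124a-2 and Mir124a-3, likewise averaged 3.69, 3.26 and 0.55 CPM. Which cells the members' counts came from was not tested.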

How the data were processed

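The files deposited by the authors hold raw counts of reads per miRNA gene, in 3 columns (either strand, sense, opposite). Per the deposited readme, reads were on mm10 with GENCODE M4. Aligner and counter: not given in the sources used here. Rows without a gene entered neither totals nor tests. They held 54.6% and 56.1% of reads in replicates 1 and 2. Symbols and positions came from GENCODE M21 (1894 of 1973 identifiers matched), and mature sequences from RefSeq (GRCm38.p6).

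Sense counts were scaled to CPM, and means and SD are over 2 libraries. With 1 group, edgeR's quasi-likelihood test had no contrast. Ratios used TMM sizes of edgeR 4.0.16, a pseudocount of 1 CPM, and a conditional exact binomial test (scipy 1.17.1) with Benjamini-Hochberg adjustment over all 717 genes with a count, called at 0.05. The test was tried on simulated counts that had counting error only. That trial cannot show how the test behaves on these libraries, which differ by more than counting error. Alternatives included DESeq2 1.42.0 size factors. Total counts per library limit precision as the intervals show.

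Named genes were the 5 members, listed X-linked groups, seed sharers and the nearest gene per member. Members and lists were chosen with earlier results of these data known, and CPM per base was added after the data were seen.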

Additional observations from a re-analysis of the deposited data

How the results depend on the processing

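Of 118 alternative values over 20 results, 94 kept their direction and their side of the threshold or moved by less than 1 SD. Part of that number was fixed beforehand, so it does not measure robustness. Leaving out 1 of 2 libraries always moves a mean by less than 1 SD. The pseudocounts could change neither a sign nor a call. Counts on either strand could not change the ratios between members, which had 0 counts on the opposite strand. Levels scale with the total used. Without Mir99a in the total they were 1945, 1332, 66.1, 619 and 168 CPM for Mir532, Mir188, Mir362, Mir501 and Mir500, and the members' share was 0.413%. Over all reads of the table they were 673.9, 461, 22.9, 214 and 58.3 CPM, and the share was 0.143%. With counts on either strand, Mir532 had 1475 CPM, Mir501 469.7 CPM and the members 0.313%. In each of these cases the cause is the larger or smaller total. Per annotated base, a scale chosen after seeing the data, the ratios of neighbours in the order were 1.04, 3.45, 3.12 and 1.84. The count of members called was 2 with at least 10 counts required, where Mir362 passed (log2 ratio 0.33) because fewer genes were tested. The share of all genes called under that requirement is not given here, so this count has no background beside it. With edgeR's exact test at a coefficient of variation set to 10%, 0 members were called. Mir188 kept its log2 ratio of 0.14 there and lost its call. TMM, DESeq2, upper-quartile and total scaling changed no call of a member. The sign of 1 ratio turned, that of Mir501, which was -0.015 with total counts against 0.018. Pseudocounts of 0.1 and 10 CPM enter the ratios and not the test, so they could not change a call. Leaving out a replicate kept the order of the members, and ratios between libraries cannot be had from 1 library. No paired analysis was possible because the design has 1 group. A limit of depth is Mir362, with 194 and 264 counts.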
